A study of Homo sapiens with 4 samples.

Results

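Olfactory receptor genes are packed into a few large genomic clusters, and 4 of these were examined in a list of ATAC-seq peaks from breast cancer cells. The members are the listed summits, a summit being the position where the signal of a peak is highest, that lie in 1 of 4 stretches of the hg19 genome: chromosome 11 from 4380000 to 5230000 and from 5340000 to 6220000, on either side of the beta-globin genes, chromosome 11 from 55030000 to 56560000, and chromosome 1 from 247600000 to 248850000. They are called here the telomeric 11p15.4, the centromeric 11p15.4, the 11q11-q12 and the 1q44 cluster. The rule found 44 summits in 37 regions, of 371521 summits in 197823 regions in all, a region being a distinct start and end. The rule itself uses the position of the genes and no measured value, although the clusters were picked with earlier results of these data known.

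The cells were T47D-MTVL, a line derived from the luminal breast cancer line T47D that carries 1 integrated luciferase reporter under the MMTV promoter. They expressed an shRNA against several variants of linker histone H1 (multiH1sh, 2 samples) or a random shRNA (RDsh, 2 samples). DNA accessibility was read by ATAC-seq, in which the transposase Tn5 cuts and tags open DNA. The labels do not say whether the samples of a group came from separate cultures. A single peak list was available for the series, deposited under a name that presents it as multiH1sh differential to RDsh. Its track line also names RDsh, but gives the other shRNA a name that the labels do not use. How the 2 groups entered the peak calling, and whether places open in both were removed, is not given in the sources used here, so a count below is of listed peaks and an empty stretch may have been accessible in both groups. No sample has a value of its own in the list, so no spread between replicates and no comparison of knock-down with control could be given for any region below, and the intervals given cover counting error only. Without molecular identifiers PCR copies cannot be told from separate molecules, and summits of 1 region share reads.

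Olfactory receptors are G protein-coupled receptors that detect odorants in the nose. Each olfactory neuron is known to express 1 receptor allele out of the whole repertoire, while the remaining receptor genes are held silent in compact heterochromatin, and most of the family is not used in breast epithelium. Linker histone H1 sits on the nucleosome and its linker DNA and is abundant in compact chromatin. Neither H1 binding nor compaction of these clusters in T47D-MTVL cells was examined here. The fold enrichment is the authors' ratio of signal over background at the summit. The reads at a summit, called its height, were recovered from the fold and the p-value, and gave whole numbers over a common background of 2.01 reads. Because that background was the same everywhere, a fold compares a summit with the genome as a whole and says nothing of the control cells at that place.

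The gene runs of the 4 clusters were taken by order in the RefSeq table of GRCh38.p14, a later build than that of the list. They hold 257 olfactory receptor genes, of which 143 are protein-coding and 114 are pseudogenes or the like. The telomeric 11p15.4 cluster runs from OR52B4 to OR51V1 with 53 receptor genes (26 protein-coding), and the next protein-coding gene after it is HBB, the adult beta-globin gene. The centromeric 11p15.4 cluster starts after HBE1, the embryonic beta-type globin gene, and runs from OR51AB1P to OR52W1 with 49 (29 protein-coding). The 11q11-q12 cluster is the largest, from OR4A11P to OR5G3 with 99 (45 protein-coding), and the 1q44 cluster runs from OR2B11 to OR14I1 with 56 (43 protein-coding). Among these receptors stand 13 other protein-coding genes. They include ubiquitin ligases of the TRIM family: TRIM21, an intracellular antibody receptor, and TRIM68 in the telomeric 11p15.4 cluster, TRIM5, a restriction factor of retroviruses, with TRIM6, TRIM34 and the interferon-induced TRIM22 in the centromeric one, TRIM51 in 11q11-q12 and TRIM58 in 1q44. The protease gene MMP26, GCSAML and the read-through gene TRIM6-TRIM34 are also among them. The edges of these gene runs were not compared with the hg19 edges of the stretches. Genes near an edge may therefore lie outside a stretch. No listed summit was placed on a gene, since no annotation of hg19 was used here.

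The sequence around the gene starts shows how the receptor genes differ from most genes. RefSeq windows of 300 bases (250 before and 50 after the start, GRCh38.p14) were matched for 117 of the 143 protein-coding receptor genes, with 121 starts, and for 11 of the 13 other genes, with 14 starts. The receptor starts had a median of 1 CpG pair, and 109 of 121 (90.1%) had at most 3, against a median of 14 over all 35116 starts of the table, of which 24.5% had at most 3. Their median GC content was 36.7%, against 58.7% over all starts. In 49 of the 121 receptor windows (40.5%, against 2.29% of all) the listed start is the first base of an ATG, so that the gene model holds no upstream exon and the window need not be the promoter. The other genes of the clusters had a median of 6 CpG pairs with a range from 0 in MMP26 to 39 at 1 of the 3 starts of GCSAML. TRIM58 had 20, TRIM68 had 15 and TRIM21 had 6. Only 2 of the receptor starts had 10 or more, namely 1 start of OR2L13 with 24 and that of OR52N2 with 14. Another start of OR2L13 had 1. Shown are 2 receptor starts with the median count, then the receptor start and the other gene start with the most, each 5′ to 3′ with CpG pairs in capitals. OR4C6 is at chr11:55661951-55662250 (plus strand), OR13G1 at chr1:247679690-247679989 (minus strand), OR2L13 at chr1:247936927-247937226 (plus strand) and GCSAML at chr1:247518202-247518501 (plus strand), all in GRCh38.p14, which cannot be read against the hg19 positions below.
OR4C6: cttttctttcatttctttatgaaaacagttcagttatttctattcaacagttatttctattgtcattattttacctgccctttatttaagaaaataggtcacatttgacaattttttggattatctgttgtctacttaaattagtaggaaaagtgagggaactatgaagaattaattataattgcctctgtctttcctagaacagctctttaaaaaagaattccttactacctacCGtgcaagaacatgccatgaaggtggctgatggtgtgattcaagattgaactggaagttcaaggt
OR13G1: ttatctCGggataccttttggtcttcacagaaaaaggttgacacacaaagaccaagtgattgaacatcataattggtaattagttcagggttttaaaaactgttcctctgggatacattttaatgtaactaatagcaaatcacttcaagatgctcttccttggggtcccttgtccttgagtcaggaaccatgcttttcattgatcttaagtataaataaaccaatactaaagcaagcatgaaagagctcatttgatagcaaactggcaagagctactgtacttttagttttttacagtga
OR2L13: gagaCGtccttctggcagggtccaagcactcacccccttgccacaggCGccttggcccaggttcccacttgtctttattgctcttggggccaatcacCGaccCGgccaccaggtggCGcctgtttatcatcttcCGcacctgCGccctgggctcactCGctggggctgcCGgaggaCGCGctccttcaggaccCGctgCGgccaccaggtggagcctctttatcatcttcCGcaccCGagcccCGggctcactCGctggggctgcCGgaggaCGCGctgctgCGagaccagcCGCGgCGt
GCSAML: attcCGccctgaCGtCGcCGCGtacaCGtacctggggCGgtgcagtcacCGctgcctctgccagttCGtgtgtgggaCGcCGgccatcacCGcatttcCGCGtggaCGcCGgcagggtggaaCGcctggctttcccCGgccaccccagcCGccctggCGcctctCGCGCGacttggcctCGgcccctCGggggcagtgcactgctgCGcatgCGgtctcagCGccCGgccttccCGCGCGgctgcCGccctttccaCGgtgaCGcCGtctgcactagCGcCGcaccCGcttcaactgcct

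The contrast between the first pair and the second is plain by eye: OR4C6 and OR13G1 are rich in A and T with 1 CpG pair each, whereas OR2L13 and GCSAML carry them throughout. The letters TAATTA, the core bound by LHX2 and other homeodomain factors known to act at receptor genes, read the same on both strands and occurred in 29 of 121 receptor windows (23.97%), against 4.84% of all 35116 windows. They occurred in 2 of 22 windows of the telomeric 11p15.4 cluster, 6 of 20 of the centromeric, 13 of 42 of 11q11-q12 and 8 of 37 of 1q44. The receptor windows are also poorer in G and C, as given above, and a match of 6 letters is a description and not a binding site.

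**Figure D1:**
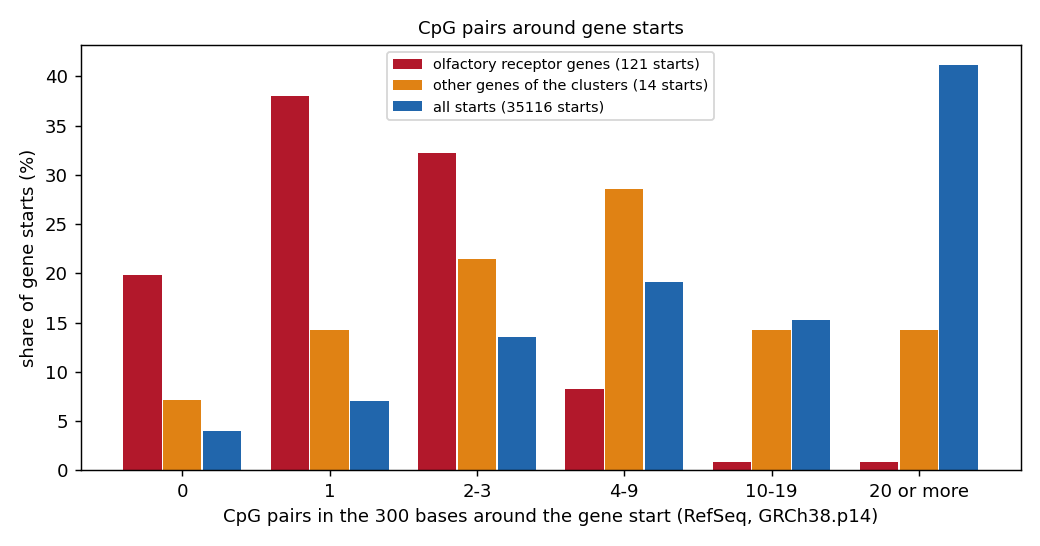
Share of gene starts (vertical axis, percent) by the number of CpG pairs in the RefSeq window of 300 bases around the start (horizontal axis), for the 121 receptor starts, the 14 starts of other protein-coding genes of the clusters and all 35116 starts of the table. The receptor starts crowd at 0 to 3 pairs (90.1%), where 24.5% of all starts lie.

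The receptor clusters held few listed summits. Together they span 4.51 Mb, or 0.150% of the length spanned by the list, and held 0.0118% of its summits. This is 9.76 summits per Mb (exact Poisson interval 7.09 to 13.1). The flanks, 1 Mb on either side outside the clusters and the centromere gap and up to the last listed base of the chromosome, span 4.54 Mb and had 618 summits, or 136 per Mb (126 to 147). The clusters thus had 0.0717 times the density of their flanks (exact conditional interval 0.0515 to 0.0974), a 13.95-fold lower value (10.3 to 19.4). With regions in place of summits the ratio was 0.102 (0.0707 to 0.143), from 37 regions in the clusters and 365 in the flanks. For comparison, the whole list had 124 summits per Mb, chromosome 11 had 199 and chromosome 1 had 120 (119.6).

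All 4 clusters were sparser than their own flanks, but not by the same factor. The telomeric 11p15.4 cluster had 8 summits, or 9.41 per Mb (4.06 to 18.5), against 42.0 in its flanks, a ratio of 0.224 (0.0915 to 0.479). The centromeric 11p15.4 cluster had 5, or 5.68 per Mb (1.84 to 13.3), against 60.9, a ratio of 0.0933 (0.0294 to 0.228). The intervals of these ratios exclude 1 and overlap each other. The 11q11-q12 cluster had 7 summits in 1.53 Mb, or 4.58 per Mb (1.84 to 9.43), against 235 in its flanks, a ratio of 0.0195 (0.00776 to 0.0408). The 1q44 cluster had 24, or 19.2 per Mb (12.3 to 28.6), against 185, a ratio of 0.104 (0.0654 to 0.158). The flanks of 11q11-q12 depend on the centromere gap, which ends by definition at a listed region: with the gap counted as flank they had 122 per Mb, fewer than those of 1q44, and the ratio was 0.0375 (0.0149 to 0.0784). Without the 11q11-q12 cluster and its flanks the pooled ratio was 0.116.

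**Figure D2:**
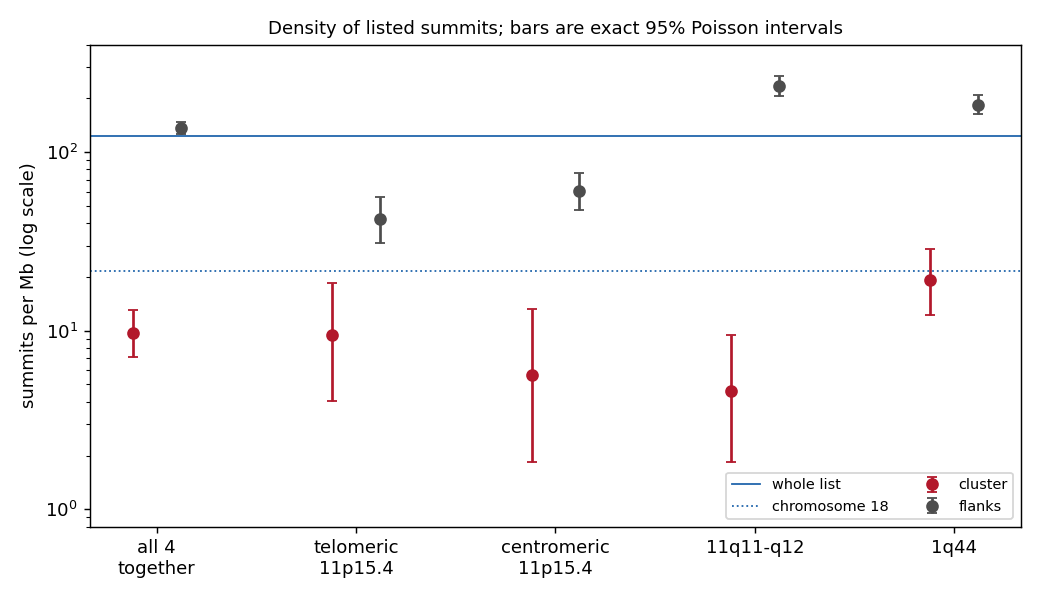
Summits per Mb (vertical axis, log scale) in the clusters (red) and in their flanks (grey), with exact 95% Poisson intervals that cover counting error only; lines mark the whole list (124 per Mb) and chromosome 18 (21.5 per Mb). Each cluster lies below its flanks, and 1q44 lies highest among the clusters at 19.2 per Mb.

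Sparse sequence is common in this list, and the clusters were no extreme of it. Of 2802 windows of 1 Mb on chromosomes 1 to 22 and X, 33.2% had as few summits per Mb as the clusters together, and the median window had 21. At the density of the 11q11-q12 cluster or below lay 21.1% of windows, at that of the centromeric 11p15.4 cluster 24.2% and at that of the telomeric 33.2%. The 1q44 cluster stood near the middle, with 48.3% of windows at or below it. Chromosome 18, which is gene-poor, had 21.5 summits per Mb, and the clusters had 0.455 times this (0.329 to 0.613). The flanks together (136 per Mb) lay at the 79.7th percentile of windows and the clusters together at the 33.2nd. The mean window had 125 summits, far above the median, and the flanks lay close to this mean.

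**Figure D3:**
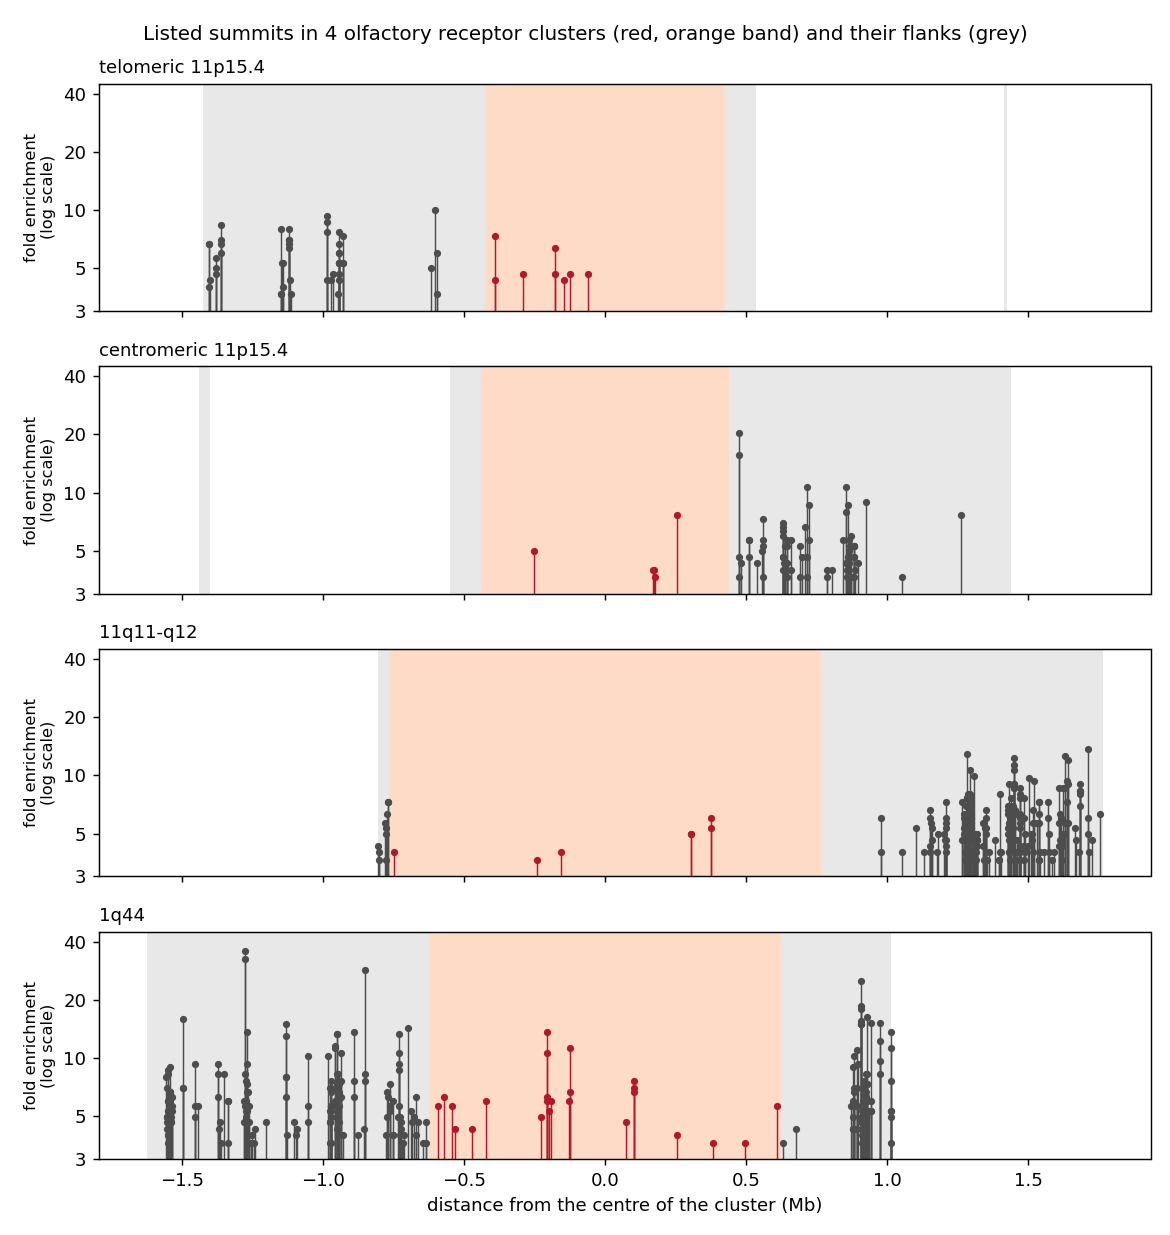
Fold enrichment (vertical axis, log scale) of each listed summit against its distance from the cluster centre in Mb (horizontal axis), with clusters as orange bands with red summits and flanks as grey bands with grey summits; white is outside both. The 44 red summits are sparse, most of all in the clusters of chromosome 11, although some share a region. The highest, at a fold of 13.6, is in 1q44.

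The 1q44 cluster was denser than the 3 clusters of chromosome 11, which together had 20 summits in 3.26 Mb, or 6.13 per Mb (3.75 to 9.47). The ratio was 3.13 (1.66 to 5.97) over summits and 2.75 (1.37 to 5.56) over regions, of which 1q44 had 19 and the others 18. The flanks of 1q44 (185 per Mb) were also denser than those of the telomeric (42.0) and centromeric (60.9) 11p15.4 clusters. Those of 11q11-q12 outside the centromere gap were denser still (235). Against its own flanks 1q44 (0.104) lay between the centromeric (0.0933) and telomeric (0.224) 11p15.4 clusters, and above 11q11-q12 (0.0195). The densest and the sparsest of the clusters on chromosome 11 could not be told apart: the 11q11-q12 cluster had 0.486 times the density of the telomeric 11p15.4 cluster, with an interval from 0.150 to 1.53.

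In the 1q44 cluster 9 of the 24 summits lay in 6 regions within 80.6 kb, from 248020399 to 248100955 on chromosome 1. The highest summit of all 4 clusters was in the first of these, the region from 248020399 to 248021208, which has 4 summits with heights up to 40 reads (fold 13.6). The next highest region, from 248100135 to 248100564, reached 33 reads (fold 11.3), with smaller regions of 17 reads at 248099274 to 248099470 and 19 reads at 248100812 to 248100955 at its sides. Next came the widest of the clusters, from 248327668 to 248328893 (1226 bp), with 3 summits of up to 22 reads (fold 7.65). These 3 of 19 (15.8%) are the only regions of 1q44 with 20 reads or more, against 21.9% of all listed regions. The other 16 had 10 to 19 reads, and the lowest of them, from 248609723 to 248609906 and from 248722278 to 248722432, had 10 reads each, the least that the list holds anywhere. The longest stretch of 1q44 without a region ran for 199 kb, from 248100956 to 248300276.

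The telomeric 11p15.4 cluster had its 7 regions in its first part only. The last of them ended at 4745411 on chromosome 11, and the remaining 485 kb of the cluster (57.0% of its length) had none. The highest region, from 4414862 to 4415058, had 21 reads (fold 7.31) and lay 0.121 kb from a neighbour of 12 reads, from 4414598 to 4414740. The widest, from 4629148 to 4629581 (434 bp), was the only one with 2 summits, of up to 18 reads (fold 6.32). The other 4 had 12 or 13 reads, and those of 13 reads (fold 4.65), from 4514606 to 4514701, from 4682733 to 4682872 and from 4745269 to 4745411, tie for the next rank.

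The empty stretch went on past the cluster's end. From 4745412 to 5529987, over 785 kb, no region was listed, and this takes in the 110 kb between the 2 clusters of 11p15.4, where the beta-globin genes HBB to HBE1 stand between the receptor runs in the RefSeq order. These globin genes are expressed in red blood cell precursors, and 0 summits were listed in that interval. The next region, from 5529988 to 5530112, opened the centromeric 11p15.4 cluster with 14 reads (fold 4.99). After it 421 kb followed without any, from 5530113 to 5950694. The other 4 regions lay within 83.7 kb. The widest, from 5952354 to 5952566 (213 bp), had 11 reads (fold 3.99), as had the region from 5950695 to 5950843, while that from 5958309 to 5958432 had 10. The last, from 6034295 to 6034392, was narrow at 98 bp and was the highest of this cluster with 22 reads (fold 7.65).

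The 11q11-q12 cluster had no region of 20 reads or more (0 of 6). The upper Wilson bound of 39.0% takes in the background of 21.9% of all listed regions. Its highest were the neighbours from 56169535 to 56169647, with 17 reads (fold 5.98), and from 56169778 to 56169935, with 15 (fold 5.32), followed by that from 56099571 to 56099788 with 2 summits of 14 reads each (fold 4.99). The widest, from 55640057 to 55640543 (487 bp), had 11 reads. The remaining ones, from 55047326 to 55047486 and from 55554581 to 55554723, had 11 and 10 reads and lay 507 kb apart, with no region from 55047487 to 55554580. Of the cluster's 1.53 Mb, 1356 kb lay in 3 stretches of over 100 kb without a region.

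Pooled, the summits of the clusters had heights close to those of the list. The median height was 14.5 reads, with 10 as the lowest and 40 as the highest, against a median of 15 in the flanks and in the whole list, and the median fold was 5.15, against 5.32 in both. The clusters differed in direction. The median fold was 4.65 in the telomeric 11p15.4 cluster against 5.32 in its flanks, 3.99 in the centromeric against 4.65 and 4.99 in the 11q11-q12 cluster against 5.32. In the 1q44 cluster, with 24 of the 44 summits, it was 5.98 against 5.65. None of these differences was tested, and the clusters of chromosome 11 rest on 5 to 8 summits each. Of the 44 summits 7 (15.9%, Wilson interval 7.93 to 29.4%) had 20 reads or more, where the background in the whole list was 26.5%. In the flanks 157 of 618 (25.4%) did. The difference from the flanks was -9.50 percentage points, with an interval from -18.2 to 4.35 that includes 0. Counted by region, 5 of 37 (13.5%) passed, against a background of 21.9% of all regions and a difference from the flanks of -9.77 points (-18.7 to 5.24). With only 44 summits a shift in height was not resolved. Heights of 10 to 12 reads, just inside the list's lower limit, made up 29.5% of cluster summits and 25.4% of flank summits, and summits of fewer than 10 reads are not listed.

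**Figure D4:**
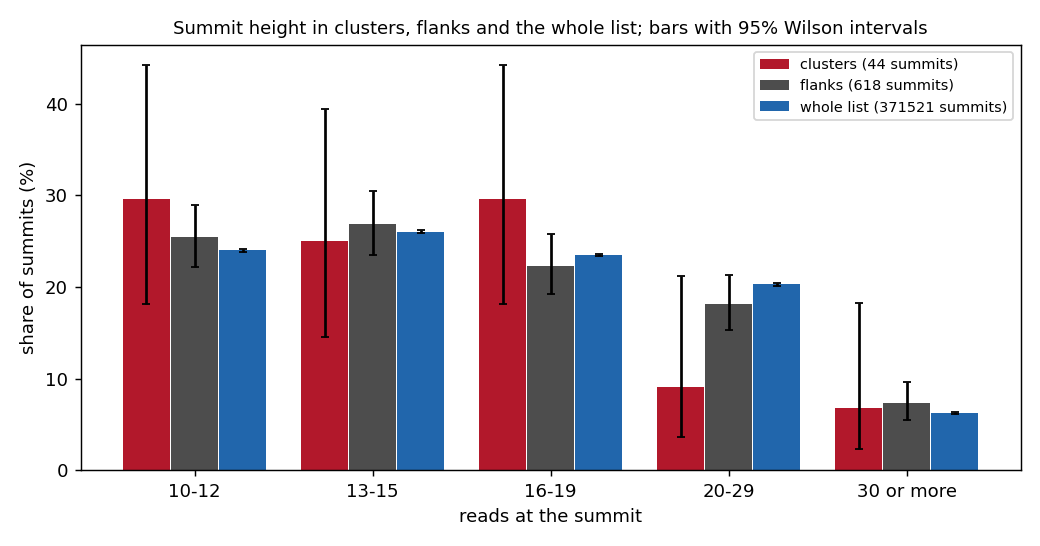
Share of summits (vertical axis, percent, with 95% Wilson intervals) in classes of reads at the summit (horizontal axis), for the clusters (44 summits), the flanks (618) and the whole list (371521). The intervals of the clusters are wide and overlap those of the flanks in every class; the largest gap is at 20 to 29 reads, with 9.09% against 18.1%.

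Most regions of the clusters had a simple shape. Of the 37 regions 33 (89.2%) had a single summit, against 68.2% of the flank regions and 71.8% of all regions. The share with more than 1 summit differed from that of the flanks by -20.97 percentage points (-29.2 to -6.34). This interval takes regions as independent, although many in the flanks lie under 1 kb apart. Chromosome 18 came closer to the clusters, with 83.2% single and a difference in the share with more than 1 of -5.95 points (-12.8 to 8.09), which includes 0. The median width was 167 bp in the clusters, 180 bp on chromosome 18, 194 bp in the flanks and 208 bp in the whole list, and the listed regions covered 2159 bp per Mb of cluster against 28078 bp per Mb of flank. Neighbouring regions were a median of 57.9 kb apart in the clusters, 1.52 kb in the flanks and 0.838 kb in the whole list. Only 4 of 33 such distances (12.1%) were under 1 kb, against 41.5% in the flanks and 53.4% in the whole list.

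The summits left most of the clusters empty. In the densest stretch of the telomeric 11p15.4 cluster 4 of its 8 summits, in 3 regions, fell within 53.7 kb. In that of 11q11-q12 4 of its 7, also in 3 regions, fell within 70.4 kb. These stretches were picked for their counts, so some bunching in them is given by construction. Of 88 windows of 50 kb lying wholly in a cluster, 63 had no summit (71.6%, Wilson interval 61.4 to 80.0%), where the background over chromosomes 1 to 22 and X was 53.7% and the flanks had 35.3%. The share exceeded that of the flanks by 36.3 percentage points (21.6 to 48.8) and that of the genome by 17.9 (7.72 to 26.3). It was 71.6% on chromosome 18 as well. By cluster it was 26 of 30 windows in 11q11-q12, 14 of 17 in the centromeric and 11 of 16 in the telomeric 11p15.4 cluster, but 12 of 25 in 1q44, where the interval of the share (30.03 to 66.5%) takes in the background.

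The edges differed from end to end. The 250 kb before the 1q44 cluster had 39 summits, or 156 per Mb (111 to 213), with the nearest region 8.41 kb away. The 250 kb after it had only 3, or 12 per Mb (2.47 to 35.1), although the nearest region lay 5.35 kb from its end. The 1 Mb before it had 186 summits, with the highest of all flank summits in the region from 246948936 to 246949294 (107 reads, fold 35.9). The 0.391 Mb after it, up to the last listed base of chromosome 1, had 71, the highest in the region from 249131892 to 249133503 (75 reads, fold 25.3). After the end of the 11q11-q12 cluster no region was listed for 213 kb, and the 1 Mb there had 234 summits with a highest fold of 13.6, in the region from 57508609 to 57509373. Before its start the listed sequence begins at 54990269, the end of the centromere gap, and the 39.7 kb between held 10 summits, the highest at 21 reads in the region from 55023075 to 55025748. The 1 Mb before the telomeric 11p15.4 cluster had 47 summits (highest fold 9.97, from 4203402 to 4203773), and the last of these regions lay 171 kb before the cluster. The 1 Mb after the centromeric 11p15.4 cluster had 70, beginning 35.3 kb from its end, with a highest fold of 20.3 in the region from 6255822 to 6256639.

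Pooled over all edges, the first 250 kb outside had 62.9 summits per Mb (50.4 to 77.5), those from 250 to 500 kb had 159 (136 to 184), those from 500 to 750 kb had 236 and those from 750 to 1000 kb had 108. The pooled value of the first 250 kb joins unlike edges. Besides those of 1q44, it was 120 per Mb (30 summits) after the centromeric 11p15.4 cluster, but 16 per Mb (4 summits) before the telomeric one and 8 per Mb (2 summits) after 11q11-q12. With 10 reads over a background of 2.01 as the lowest listed height, an empty stretch shows only that no peak was listed there and not that the chromatin was closed. How reads that fit several near-identical receptor genes or pseudogenes equally well were placed is not given in the sources used here. Its part in the low density was not tested.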

How the data were processed

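For the ATAC-seq libraries of 2 multiH1sh and 2 RDsh samples, the submitters' processing notes name Bowtie 1.1.2, MACS2 and hg19. How MACS2 was set and whether samples were pooled is not given in the sources used here. Per the file header and its format, the deposited peak table holds a score, a fold (ratio) of signal over background, and −log10 p values at each summit, as the authors deposited them, with no value per sample. Depth per sample is therefore unknown.

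Lines were assigned to a cluster by summit position, and positions are printed counted from 1. Heights were solved from the fold as (reads + 1) / (background + 1) and p as the Poisson tail above the reads. They were whole within 0.02 reads for all summits under 400 reads. The solver recovered 100% of simulated summits, but these were built by the same formula, so this checks its arithmetic only. The centromere gap of chromosome 11 was taken from 51593219 to 54990268, between the listed regions that bound it. Density ratios carry exact conditional binomial intervals, shares Wilson intervals and their differences Newcombe intervals, at 95%. All intervals take summits, regions or windows as independent, although listed regions lie in clumps, so they are likely too narrow. No p-value was computed, because clusters and summits are not replicates. Height limit, edges, flank length, window size and clusters included were varied.

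Named in each cluster are the 3 highest regions, the widest, that with the most summits and the longest empty stretch, and in each flank the highest region. The densest stretches of the clusters and those regions beyond this rule were chosen after their values were seen. The clusters and lists were chosen with earlier results of these data known. Olfactory signalling genes outside the clusters were not analysed here, since no hg19 annotation was used. Python 3.11.15, numpy 2.4.6, pandas 2.3.3, scipy 1.17.1, statsmodels 0.14.6 and matplotlib 3.10.9 were used.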

Additional observations from a re-analysis of the deposited data

How the results depend on the processing

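The ratio of cluster to flank density (0.0717) stayed below 1 in all 15 alternatives, from 0.0449 to 0.116. It became 0.0449 for summits of 20 reads or more and 0.116 without the 11q11-q12 cluster, each a change of over 1.5 times. Smaller changes gave 0.102 with each region counted once and 0.0978 with the edges 50 kb outwards. The cause of these shifts was not tested. With the flank beside the centromere gap left out it was 0.0722 and with the gap counted as flank 0.0868, both tried after the data were seen. The ratio of 11q11-q12 to its own flanks (0.0195) was 0.0375 with the gap counted as flank, likewise tried afterwards. The count of summits (44) became 7 at 20 reads or more and 20 in the 50% of summits with the highest fold, by construction, and 66 with the edges 50 kb outwards. The share of windows without a summit (71.6%) became 81.0% without 1q44, 83.6% in windows of 25 kb, 50% in windows of 100 kb and 94.3% for summits of 20 reads or more. The share of summits at 20 reads or more (15.9%) became 50% at 15 reads and 6.82% at 30, by construction. The median fold ran from 4.65 without 1q44 to 5.65 without 11q11-q12. No paired analysis was possible because no sample has values of its own among the deposited peaks, and no replicate could be left out for that reason.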
